A study of Homo sapiens with 6 samples.

Results

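Integrins and other adhesion receptors hold leukocytes to vessel walls, matrix and one another. The 10 genes described here encode 4 integrin α chains (ITGA4, ITGA5, ITGA6 and ITGAL), 3 integrin β chains (ITGB1, ITGB2 and ITGB7), the hyaluronan receptor CD44, the selectin ligand PSGL-1 (SELPLG) and the adhesion ligand ICAM3. They were chosen by gene symbol from the 60640 gene identifiers of the tables, and each symbol matched exactly 1 row. Transcripts were measured by polyA RNA-seq in MOLT-4, a long-established human line from a T-cell acute lymphoblastic leukemia, in 3 wild type libraries and 3 libraries labelled IK-KO. The wild type cells are the control of the CRISPR knockout, and in IK-KO the IKZF1 gene, which encodes the DNA-binding lymphoid regulator IKAROS, was targeted with CRISPR-Cas. Both were bought as a prepared pair and grown in the same serum-containing medium with no other agent. The sources show a pair of knockout clones but do not say which one was sequenced, so differences between clones and the effect of the targeted gene cannot be told apart. Nothing says that the libraries came from separate cultures, so each p-value reflects no more than the library-to-library spread.

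An integrin is a pair of 1 α and 1 β chain, and the pairing sets the ligand. In T cells the α4 chain pairs with β1 to bind VCAM-1 and fibronectin, or with β7 to bind the gut addressin MAdCAM-1. The α5 and α6 chains pair with β1 in these cells and bind fibronectin and laminin, and the αL chain pairs with β2 to form LFA-1, which binds the ICAM family. Adhesion through integrins also depends on proteins inside the cell, such as talin and kindlin, which bind the β tail and switch the pair to its active form.

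Values are FPKM, fragments scaled for transcript length and for the number of mapped fragments, so levels of different genes can be set side by side. The FPKM summed to between 699352 and 738051 per library, and between 12446 and 12692 genes had an FPKM of at least 1. IKZF1 RNA itself was higher in the edited group (121 ± 15.1 FPKM in wild type and 225 ± 30.3 FPKM in IK-KO, SD, n = 3, log2 change 0.89, limma adjusted p 0.00295). An FPKM table carries no sequence, so the edit was not checked here and the group is named by its label. The study reports checking the knockout by PCR and western blot, with a blot of wild type and a pair of knockout clones. The 12 T-lineage markers were all detected. Their summed levels ran from 1451 to 1525 FPKM in wild type and from 1780 to 1982 FPKM in the libraries labelled IK-KO. CD3D was the largest part of the sum, with means of 490 FPKM in wild type and 667 FPKM in IK-KO. At a limma adjusted p under 0.05, 5 of the 12 markers were higher and 5 lower in IK-KO, as were 10.1% and 9.75% of tested genes. The higher ones were CD3D, CD3G, CD247, CD1A and ZAP70. The lower ones were CD5, CD7, CD4, CD8A and TRAC, with wild type means of at most 25.3 FPKM, so the sum hardly reflects them. Of these, CD4 reached 1 FPKM only in its wild type libraries. Markers of B cells, myeloid cells, and erythroid cells and megakaryocytes summed to at most 3.66, 0.623 and 0.631 FPKM in any library, with MS4A1, PAX5, MPO, SPI1, HBB and GATA1 under 0.1 FPKM in every one. Among 8 markers of fibroblasts, endothelium and epithelium, only PECAM1, which T cells also express, and KRT8 passed the filter, neither was called, and COL1A2, CDH5 and EPCAM were under 0.1 FPKM throughout.

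The promoters of the members with the largest changes are shown first, because IKAROS binds DNA at sites built around the letters GGGAA. RefSeq promoters (GRCh38.p14) were found for 7 of the 10 genes, those of ITGAL, ITGB2 and SELPLG not being in the table. The 250 bases before the annotated start are given 5′ to 3′ on the strand of the gene. For the 4 genes printed, the RefSeq start lies inside the gene span of the tables, and for ITGB1 the span reaches well upstream of it. The windows lie at chr19:10339625-10339874 (minus strand) for ICAM3, chr11:35138921-35139170 (plus strand) for CD44, chr12:53207252-53207501 (minus strand) for ITGB7 and chr10:32958231-32958480 (minus strand) for ITGB1. Capitals mark GGGAA and its reverse complement TTCCC.
ICAM3: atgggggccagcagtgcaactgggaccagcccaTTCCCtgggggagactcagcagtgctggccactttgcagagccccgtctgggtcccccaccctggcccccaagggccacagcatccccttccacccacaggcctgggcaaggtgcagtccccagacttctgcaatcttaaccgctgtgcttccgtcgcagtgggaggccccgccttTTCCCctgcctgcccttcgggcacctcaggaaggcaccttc
CD44: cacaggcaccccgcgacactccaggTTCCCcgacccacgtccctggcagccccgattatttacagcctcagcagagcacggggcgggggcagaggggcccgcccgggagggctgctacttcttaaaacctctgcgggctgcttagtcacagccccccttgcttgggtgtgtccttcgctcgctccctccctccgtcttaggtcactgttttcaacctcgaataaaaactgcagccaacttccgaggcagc
ITGB7: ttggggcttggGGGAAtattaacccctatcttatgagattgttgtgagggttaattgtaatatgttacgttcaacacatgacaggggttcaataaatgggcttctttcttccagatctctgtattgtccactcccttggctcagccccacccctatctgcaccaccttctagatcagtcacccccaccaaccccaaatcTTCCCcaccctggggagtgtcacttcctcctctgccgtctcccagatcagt
ITGB1: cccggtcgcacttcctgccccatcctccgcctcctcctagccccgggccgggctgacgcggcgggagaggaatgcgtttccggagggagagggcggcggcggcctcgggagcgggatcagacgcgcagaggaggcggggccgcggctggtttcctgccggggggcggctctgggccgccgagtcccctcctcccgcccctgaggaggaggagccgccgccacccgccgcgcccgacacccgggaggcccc
ICAM3 and ITGB7 each held 2 matches, CD44 held 1 and ITGB1 held none. ITGA4 held 2 and ITGA6 none. ITGA5, which rose as ITGB1 did, held 3. In all, 5 of the 7 promoters held the letters, against 59.0% of 35116 RefSeq promoters of this length. The longer form TGGGAA, which contains GGGAA, was in none of the 7 and in 20.8% of all promoters. A match is only a run of letters, and binding was not measured in these files.

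The adhesion genes differed widely between the groups. Of the 10, 8 were called, that is, had a limma adjusted p under 0.05 over the 12652 genes whose mean reached 1 FPKM. Called genes made up 19.9% of all tested genes. The 10 were chosen with earlier results of these data known, so these shares describe the list and are no test of it. In the libraries labelled IK-KO, 2 members rose (ITGB1 and ITGA5, beside 10.1% of tested genes) and 6 fell (ITGA4, ITGAL, ITGB7, CD44, SELPLG and ICAM3, beside 9.75%), while ITGA6 and ITGB2 were not called. In 8 of the 10 the groups were fully apart, against 39.0% of tested genes, and the confidence bounds printed beside each FPKM did not overlap between the groups in 5 (ITGA4, ITGB1, CD44, SELPLG and ICAM3), against 9.33%. The median log2 change of the 10 was −0.46, and that of all tested genes was 0.02. ITGB7 passed the filter on low values only through its wild type libraries, and without it 7 of 9 were called. In bulk RNA, fewer cells carrying a transcript and less of it per cell cannot be told apart.

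**Figure D1:**
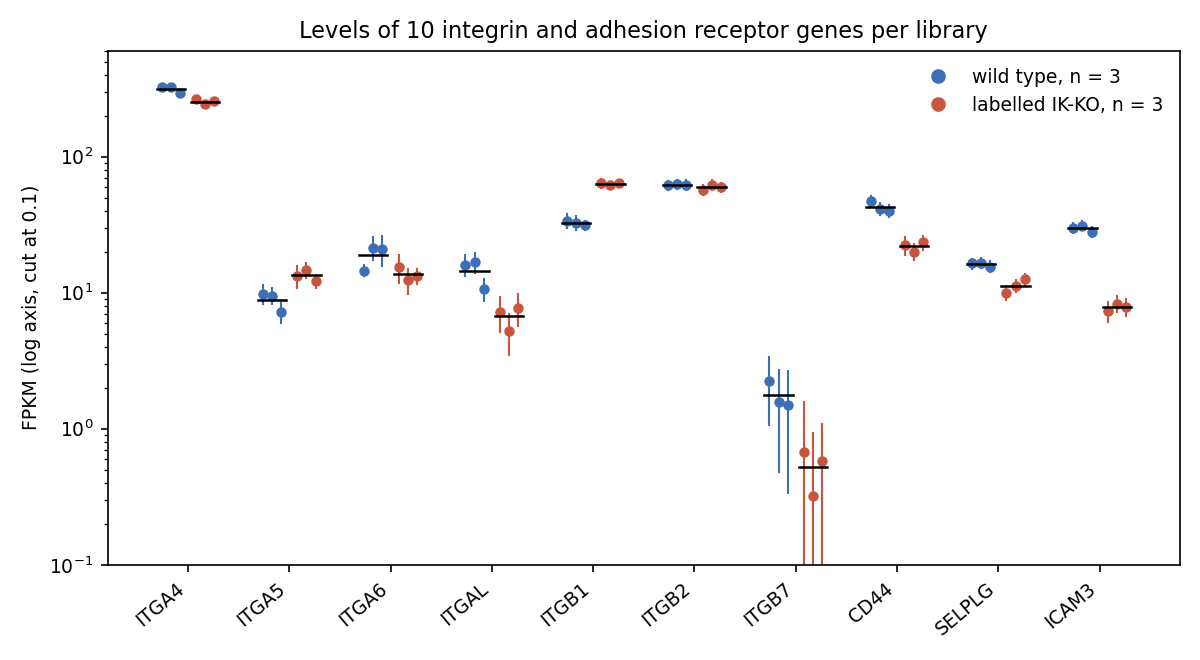
FPKM of each gene in each library on a log axis (points), with the confidence bounds of the deposited tables (vertical lines, drawn down to 0.1) and the group mean (black bars), for 3 wild type and 3 IK-KO libraries. ITGA4 lies highest in both groups, from 242 to 324 FPKM, ITGB7 lowest, and the points of ITGA6 and ITGB2 overlap between the groups.

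ITGA4, the α4 chain, was by far the most abundant member. It had 324, 324 and 296 FPKM in its wild type libraries against 265, 242 and 255 FPKM in the IK-KO ones. All 3 IK-KO libraries lay below all 3 wild type libraries, but the step was small. Its mean fell from 314 ± 16.1 FPKM to 254 ± 11.4 FPKM (SD, n = 3), to 80.8% of wild type, a log2 change of −0.31 with SE 0.06 (limma adjusted p 0.00949). ITGA4 (chromosome 2, 181457202 to 181538940, plus strand) stayed among the most abundant transcripts, at a mean percentile of 98.0 of tested genes in wild type and 97.4 in IK-KO.

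The β chains that pair with α4 moved in opposite directions. ITGB1, the β1 chain shared by α4, α5 and α6, had 33.8, 32.8 and 31.4 FPKM in its wild type libraries against 63.7, 61.5 and 63.5 FPKM in the IK-KO ones. The libraries within each group were close together and the groups lay far apart. Its mean rose from 32.7 ± 1.19 FPKM to 62.9 ± 1.2 FPKM (SD, n = 3), a ratio of 1.93 and a log2 change of 0.93 with SE 0.05 (limma adjusted p 9.99e-05). This was the largest rise among the 10 genes (chromosome 10, 32900318 to 33005792, minus strand). ITGB7, the β7 chain, had 2.23, 1.58 and 1.49 FPKM in its wild type libraries against 0.673, 0.321 and 0.577 FPKM in the IK-KO ones. Its groups did not overlap, but its confidence bounds did, and the lower bound was 0 in IK-KO replicates 1 and 2. The mean was 1.77 ± 0.404 against 0.524 ± 0.182 FPKM (SD, n = 3), 29.6% of wild type, and the log2 change was −0.86 (SE 0.19, limma adjusted p 0.0198). ITGB7 (chromosome 12, 53191323 to 53207282, minus strand) was no longer called without IK-KO replicate 2 or wild type replicate 2 (limma adjusted p 0.0608 and 0.0514; range over its alternatives 0.0105 to 0.0608). Its span overlaps ZNF740, which had 7.21 FPKM in wild type and 7.63 in IK-KO.

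The β1-binding chains α5 and α6 did not follow a single course. ITGA5, the α5 chain of the main fibronectin receptor, had 9.77, 9.48 and 7.24 FPKM in its wild type libraries against 13.25, 14.7 and 12.2 FPKM in the IK-KO ones. Every IK-KO value was above every wild type value. Its mean rose from 8.83 ± 1.39 FPKM to 13.4 ± 1.24 FPKM (SD, n = 3), which is a log2 change of 0.56 with SE 0.13 (limma adjusted p 0.0218). The call of ITGA5 (chromosome 12, 54395261 to 54419266, minus strand) was lost without IK-KO replicate 1 or 2 (limma adjusted p 0.0607 and 0.0738) and without the filter on low values (0.0753; range over its alternatives 0.0105 to 0.0753). ITGA6, the laminin-binding α6 chain, had 14.6, 21.4 and 20.9 FPKM in its wild type libraries against 15.4, 12.3 and 13.3 FPKM in the IK-KO ones. Wild type replicate 1 lay within the range of the IK-KO libraries. The log2 change was −0.43 (95% interval −0.80 to −0.06, limma adjusted p 0.0994) and was not called. Without wild type replicate 1 it was −0.60 and ITGA6 (chromosome 2, 172427354 to 172506459, plus strand) was called (limma adjusted p 0.0184; range over its alternatives 0.0184 to 0.249).

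The 2 chains of LFA-1 had unlike courses. ITGAL, the αL chain, had 16.1, 16.7 and 10.7 FPKM in its wild type libraries against 7.21, 5.24 and 7.76 FPKM in the IK-KO ones. Wild type replicate 3 was the lowest of its group and still above every IK-KO library. Its mean fell from 14.5 ± 3.31 FPKM to 6.74 ± 1.32 FPKM (SD, n = 3), to 46.5% of wild type, a log2 change of −0.99 with SE 0.20 (limma adjusted p 0.0129). ITGAL (chromosome 16, 30472719 to 30523185, plus strand) kept its call in all 6 fits that left out a library and lost it without the filter on low values (limma adjusted p 0.0631; range over its alternatives 0.00799 to 0.0631). ITGB2, the β2 chain, had 61.5, 62.7 and 62.4 FPKM in its wild type libraries against 56.7, 62.1 and 59.5 FPKM in the IK-KO ones. The groups overlapped. The log2 change was −0.07 with a 95% interval from −0.19 to 0.06 (limma adjusted p 0.430), and it passed under no alternative (chromosome 21, 44885953 to 44931989, minus strand). An antisense row, ITGB2-AS1, overlaps ITGB2 at 1.32 FPKM in wild type and 2.33 in IK-KO, and no source used here says whether strand was used in the quantification.

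**Figure D2:**
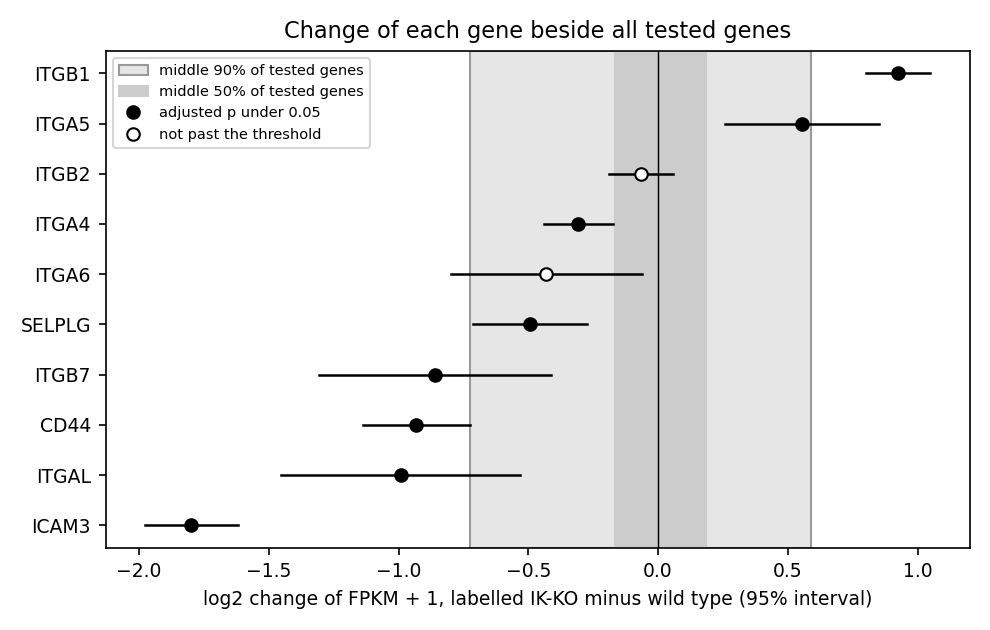
Log2 change of FPKM + 1 for each gene, IK-KO minus wild type, with its 95% interval; filled points passed the adjusted threshold, and the grey bands hold the middle 50% and 90% of the 12652 tested genes. ICAM3 (−1.80), ITGAL (−0.99), CD44 (−0.93) and ITGB7 (−0.86) lie below the wider band and ITGB1 (0.93) above it.

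The receptors outside the integrin family all fell. ICAM3, an immunoglobulin-family ligand of LFA-1 on resting leukocytes, showed the largest change of the 10 genes. It had 30.1, 31.1 and 28.0 FPKM in its wild type libraries against 7.34, 8.29 and 7.86 FPKM in the IK-KO ones. Every IK-KO value lay far below the lowest wild type value, and the confidence bounds were apart as well. Its mean fell from 29.7 ± 1.54 FPKM to 7.83 ± 0.474 FPKM (SD, n = 3), to 26.3% of wild type, a log2 change of −1.80 with SE 0.08 (limma adjusted p 2.56e-05). By absolute change ICAM3 (chromosome 19, 10333776 to 10339661, minus strand) ranked 117 among the 12652 tested genes, and on the log2(FPKM + 1) scale it was the only member both called and changed at least 2-fold, as were 3.19% of tested genes. With a pseudocount of 0.1 in place of 1, ITGAL (−1.08) and ITGB7 (−1.61) were also called and past 2-fold. CD44, which binds hyaluronan and in some glycoforms E-selectin, had 46.9, 41.3 and 39.9 FPKM in its wild type libraries against 22.3, 20.03 and 23.5 FPKM in the IK-KO ones. Each group was tight beside the distance between them. Its mean fell from 42.7 ± 3.71 FPKM to 21.9 ± 1.74 FPKM (SD, n = 3), to 51.3% of wild type, a log2 change of −0.93 with SE 0.09 (limma adjusted p 0.000628). CD44 (chromosome 11, 35138870 to 35232402, plus strand) is spliced into many isoforms, and its tables give 1 value per gene, so standard and variant forms were not separated. SELPLG, which encodes the P-selectin ligand PSGL-1, had 16.4, 16.6 and 15.5 FPKM in its wild type libraries against 10.0, 11.2 and 12.6 FPKM in the IK-KO ones. Its groups did not overlap, with a smaller distance than for ICAM3 and CD44. Its mean fell from 16.2 ± 0.581 FPKM to 11.3 ± 1.29 FPKM (SD, n = 3), which is a log2 change of −0.49 with SE 0.09 (limma adjusted p 0.0110). Of overlapping genes, only AC114271.1 on ICAM3 (1.88 FPKM in wild type and 2.54 in IK-KO) exceeded 1 FPKM in these receptors. SELPLG lies on chromosome 12 at 108622277 to 108633959 (minus strand). ICAM3, CD44, SELPLG, ITGA4 and ITGB1 kept their calls in all 17 alternatives.

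The order of levels was therefore not the same in both groups. In wild type it ran ITGA4, ITGB2, CD44, ITGB1, ICAM3, ITGA6, SELPLG, ITGAL, ITGA5 and ITGB7, and only ITGA6, SELPLG and ITGAL overlapped with their neighbours. In the libraries labelled IK-KO, ITGB1 stood second and level with ITGB2, their ranges overlapping (61.5 to 63.7 and 56.7 to 62.1 FPKM). ICAM3 stood eighth, overlapping ITGAL. ITGA6, ITGA5 and SELPLG formed an overlapping run between 10.0 and 15.4 FPKM.

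Since an α chain needs a β chain, the share of each chain within its class was compared. Such a share is not altered by rescaling a library. Among the 3 β chains, ITGB1 made up 34.6%, 33.8% and 33.0% of the summed FPKM in wild type and 52.6%, 49.6% and 51.4% in the libraries labelled IK-KO, and ITGB2 made up 63.1%, 64.6% and 65.5% against 46.8%, 50.1% and 48.2%. ITGB1 thus lay far under ITGB2 in every wild type library, above it in IK-KO replicates 1 and 3 and just under it in IK-KO replicate 2. The mean share of ITGB1 rose by 17.4 percentage points and that of ITGB7 changed from 1.83% ± 0.400 to 0.427% ± 0.152 (SD, n = 3). For ITGB1, ITGB2, ITGB7, ITGA5 and ITGAL the groups did not overlap. The exact two-sided permutation test gave p = 0.1 for each, the smallest that 3 against 3 libraries allow (0.14 adjusted over the 7 shares). Shares within a class add up to the whole, so they are not independent results. The FPKM of ITGB2 itself overlapped between the groups, with means of 62.2 in wild type and 59.4 in IK-KO. Among the 4 α chains described here, which leave out ITGAE (26.6 FPKM in wild type and 24.9 FPKM in IK-KO), ITGA4 held 88.2% ± 0.883 of the summed FPKM in wild type and 88.3% ± 0.187 in IK-KO (exact p = 0.9), and ITGA6 5.34% ± 1.19 and 4.74% ± 0.335 (exact p = 0.4). These 4 α chains summed to 357 ± 19.4 FPKM in wild type and 288 ± 13.2 in IK-KO, and the β chains to 96.6 ± 1.21 and 123 ± 1.54 (SD, n = 3, exact p = 0.1 for each). Within a library, ITGA4 was between 9.42 and 9.87 times ITGB1 in wild type and between 3.94 and 4.16 times in IK-KO. ITGB2 was 4.47 ± 1.19 times ITGAL in wild type and 9.12 ± 2.36 times in IK-KO (SD, n = 3), with no overlap. These are RNA levels, and the amount of each pair at the cell surface was not measured.

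**Figure D3:**
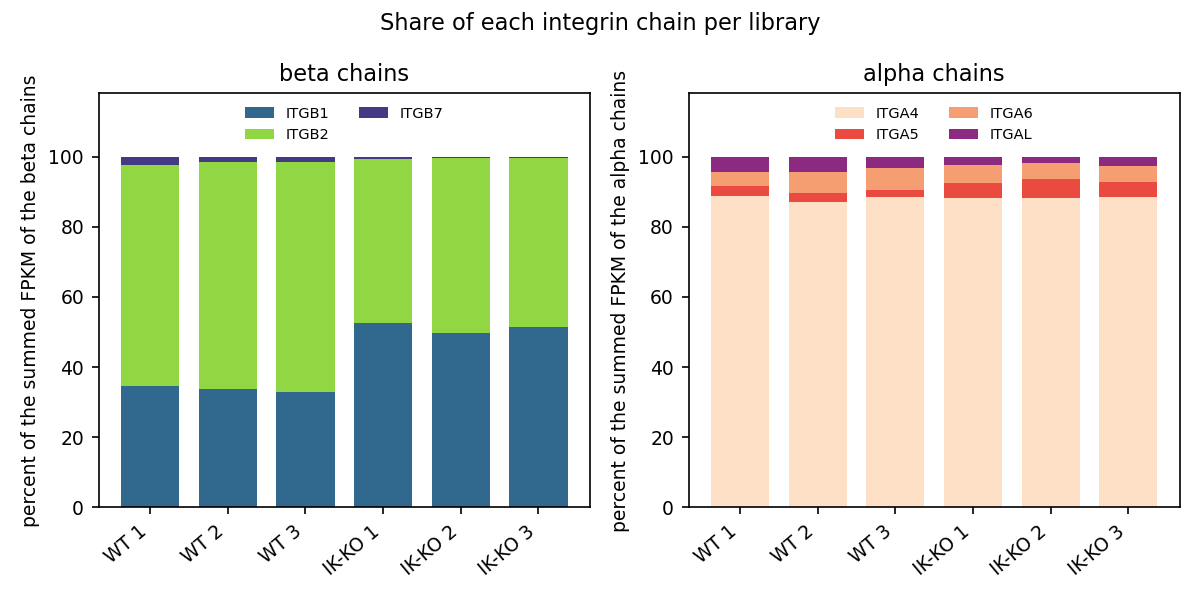
Share of each chain in the summed FPKM of the 3 β chains (left) and the 4 α chains (right), 1 bar per library. ITGB1 takes from 33.0% to 34.6% of the β chains in wild type and from 49.6% to 52.6% in IK-KO, whereas ITGA4 takes from 87.2% to 88.9% of these 4 α chains in all 6 libraries.

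Genes around each member were examined as a local background. Within 500 kb of a member lay 145 other tested genes, of which 32 (22.1%) were called, close to the background of 19.9%, with a median log2 change of 0.01. ITGAL had 50 such neighbours, with 8 called higher and 3 lower. ICAM3 had 28, with 1 called higher, 5 lower and a median of −0.12, among them ICAM4, of the same gene cluster, whose log2 change of −0.52 was not called (limma adjusted p 0.0592). After subtraction of the median change of the 20 nearest tested genes, ICAM3 was at −1.64, CD44 at −0.82, SELPLG at −0.44 and ITGB1 at 0.92 on the log2 scale, and all 8 called members stayed called.

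By the pattern over the 6 libraries, HMGN4, RPN2 and RHOU were most like ITGB1 (Pearson r of log2(FPKM + 1) 0.9999, 0.9996 and 0.9994), and REV3L, CD1B and SLC9A3R1 were most like ICAM3 (0.9996, 0.9995 and 0.9993). With 2 groups of 3 libraries such values mostly restate the distance between the groups: 701 tested genes had an r of at least 0.95 with ITGB1 and 663 with ICAM3.

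The wider adhesion machinery was described with 6 lists holding 133 genes, of which 79 passed the filter. Of these, 34 were called (43.0%, beside 19.9% of all tested genes), with 12 up and 22 down in the IK-KO group. The lists were chosen with earlier results of these data known, so this share is no test of them. ZYX and CD37, both counted as down, reached 1 FPKM only in wild type libraries. Of 19 further integrin chains only ITGAE, ITGAV and ITGA1 were tested, and limma called none (0 at an unadjusted p under 0.05). ITGAE, the αE chain whose partner is β7, was at 26.6 ± 1.18 FPKM in wild type and 24.9 ± 3.58 FPKM in IK-KO (SD, n = 3, log2 change −0.10, limma adjusted p 0.546). The myeloid αM, αX and αD chains (ITGAM, ITGAX, ITGAD), which also pair with β2, were under 0.1 FPKM in every library.

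Genes that act on integrins from inside the cell moved in both directions. Of 29 tested activation and adaptor genes, 15 were called, 6 higher and 9 lower, beside 19.9% of all tested genes called. The median log2 change of the 29 was −0.08. TLN1, talin 1, which binds β tails and activates the pair, had 62.2, 52.8 and 49.5 FPKM in its wild type libraries against 30.0, 26.8 and 22.7 FPKM in the IK-KO ones, a log2 change of −1.03 with SE 0.12 (limma adjusted p 0.00167). The IK-KO values lay well under the wild type ones. With the median change of the 20 nearest tested genes subtracted, TLN1 was at −0.74 and stayed called (limma adjusted p 0.00467). FERMT2, kindlin-2, a β tail binder better known from adherent cells, rose from 2.88 ± 0.421 FPKM to 9.80 ± 0.624 FPKM (SD, n = 3, log2 change 1.48, limma adjusted p 0.000305). FERMT3, the kindlin of blood cells, was far more abundant and stood at 42.8 ± 1.13 and 42.7 ± 0.519 FPKM (SD, n = 3, log2 change −0.0022, limma adjusted p 0.983). ZYX, the focal adhesion protein zyxin, fell from 4.12 ± 0.519 FPKM to 0.674 ± 0.115 FPKM (SD, n = 3, log2 change −1.61, limma adjusted p 0.000578). Like ITGB7, ZYX reached 1 FPKM only in its wild type libraries. PTK2B, the kinase PYK2, had a log2 change of −0.97 (limma adjusted p 0.0260), which passed in 13 of 17 alternatives (0.0179 to 0.110).

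Of the 26 further ligand and counter-receptor genes, 7 were tested and 0 were called by limma, beside 19.9% of all tested genes. Of the 7, 2 (ICAM2 and ICAM4) had an unadjusted p under 0.05. VCAM1, the endothelial ligand of α4β1, was listed at 0 in all 6 libraries. ICAM2, another LFA-1 ligand, averaged 39.96 ± 1.10 FPKM in wild type cells and 45.5 ± 3.94 FPKM in the IK-KO group (SD, n = 3, log2 change 0.18, limma adjusted p 0.131). Its level was above that of ICAM3 in every library of both groups.

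PSGL-1 and CD44 bind selectins only when decorated by certain enzymes. Of 12 tested genes for this glycosylation and sulfation, 3 were called, all lower, a share near the 19.9% of all tested genes, and each call was lost in some alternatives. TPST2, a tyrosine sulfotransferase, fell from 15.2 ± 1.44 FPKM to 9.48 ± 2.03 FPKM (SD, n = 3, log2 change −0.64, limma adjusted p 0.0208) and passed in 11 of 17 alternatives (0.00722 to 0.0801). GCNT1, the core 2 branching enzyme, had a log2 change of −0.85 (limma adjusted p 0.0475) and passed in only 4 of 16 (0.0135 to 0.351). B4GALT1, a galactosyltransferase, had −0.51 (limma adjusted p 0.0286) and passed in 8 of 16 (0.0199 to 0.384). With the median change of the 20 nearest tested genes subtracted, GCNT1 was at −0.37 and B4GALT1 at −0.17, and neither was called. TPST2 was then at −0.65 and stayed called (limma adjusted p 0.0335). FUT7, the fucosyltransferase that completes the selectin epitope, was listed at 0 in all 6 libraries, and its relative FUT4 was at 5.29 ± 0.502 and 4.96 ± 0.507 FPKM (SD, n = 3, limma adjusted p 0.684).

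The ERM proteins link CD44, PSGL-1 and ICAM3 to actin. Of 7 tested ERM genes and CD44 partners, 4 were called, 1 higher and 3 lower, beside 19.9% of all tested genes. EZR, ezrin, averaged 102 ± 4.53 FPKM in wild type cells and 121 ± 1.44 FPKM in the IK-KO group (SD, n = 3, log2 change 0.26, limma adjusted p 0.0114). With the median of the 20 nearest tested genes subtracted, the change was −0.064 and not called (limma adjusted p 0.387). RDX, radixin, fell (log2 change −0.57, limma adjusted p 0.0198; called in 11 of 17 alternatives, 0.0118 to 0.0630), as did SRGN, serglycin, a proteoglycan that binds CD44 (−0.49, 0.0167; called in 14 of 17, 0.00887 to 0.0593). ADAM10, a sheddase of CD44, fell from 123 ± 2.82 FPKM to 91.8 ± 6.48 FPKM (SD, n = 3, log2 change −0.42, limma adjusted p 0.00394) and was called in all 17. MSN, moesin, the most abundant of the 3 ERM genes, was at 223 ± 8.27 and 202 ± 2.38 FPKM (SD, n = 3) and was not called (limma adjusted p 0.0591).

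Among 21 tested genes of other leukocyte adhesion molecules and tetraspanins, which are membrane organisers of integrins, 12 were called (5 higher and 7 lower). The share called over all tested genes was 19.9%, and the median log2 change of the 21 was −0.21. CD2, the T-cell adhesion receptor for CD58, fell from 61.5 ± 2.45 FPKM to 5.14 ± 0.217 FPKM (SD, n = 3, log2 change −3.35, limma adjusted p 1.41e-06). Its ligand CD58 fell as well (13.5 ± 1.74 to 7.06 ± 1.10 FPKM, log2 change −0.85, limma adjusted p 0.00515). CD2 and CD58 lie within 500 kb of each other on chromosome 1. With the median change of the 20 nearest tested genes subtracted, CD2 was at −3.30 and stayed called. The tetraspanins CD9 (7.24 ± 1.25 to 2.71 ± 0.445 FPKM, log2 change −1.15, limma adjusted p 0.00287) and CD37 (1.74 ± 0.0885 to 0.477 ± 0.156 FPKM, −0.89, 0.0102) fell, whereas CD82 rose (25.2 ± 2.72 to 37.9 ± 2.51 FPKM, 0.57, 0.00604). The more abundant CD53 also fell (63.4 ± 1.58 to 36.8 ± 4.48 FPKM, log2 change −0.77, limma adjusted p 0.00133). CD81 rose (81.9 ± 1.02 to 97.3 ± 1.68 FPKM, log2 change 0.25, limma adjusted p 0.00809), and CD63 and CD151 were not called. CD58, CD53, CD81 and CD82 were not followed through the alternatives. CD37 passed the filter on low values only through its wild type libraries and was not tested without wild type replicate 2 or 3. CD164, a sialomucin of hematopoietic cells, rose from 109 ± 7.20 FPKM to 214 ± 8.12 FPKM (SD, n = 3, log2 change 0.97, limma adjusted p 0.000128). With the same subtraction it changed by 0.73 and stayed called.

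**Figure D4:**
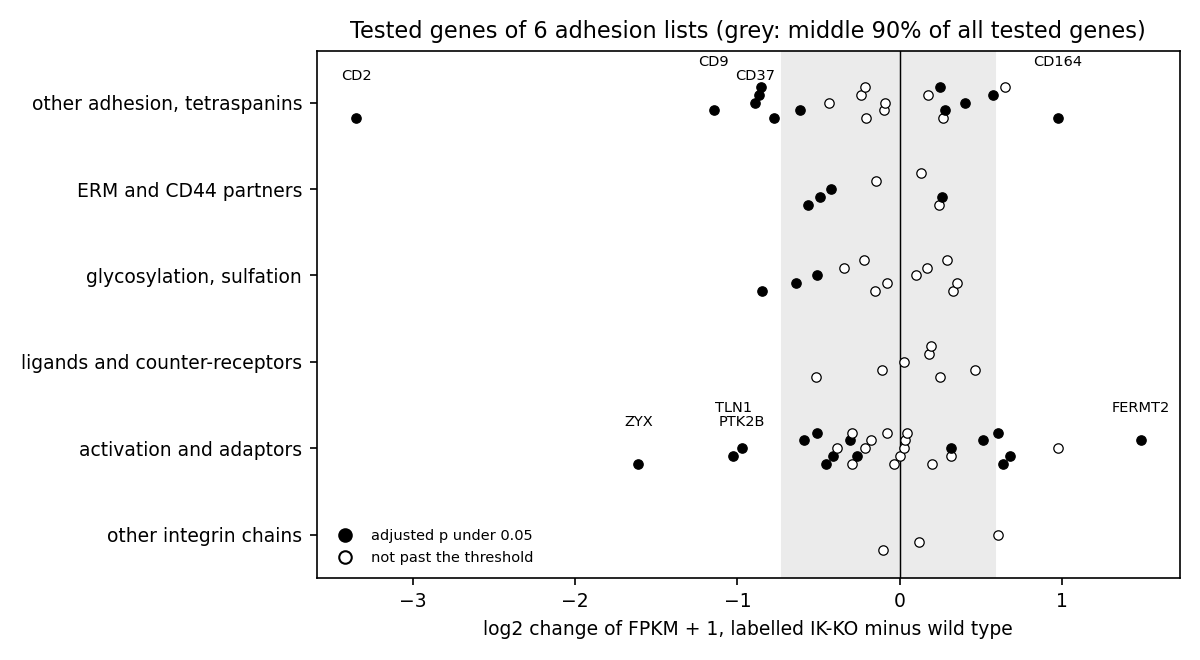
Log2 change of FPKM + 1, IK-KO minus wild type, for the 79 tested genes of 6 adhesion lists (points; filled where called, spread vertically for legibility), with the middle 90% of all tested genes in grey. The activation and other adhesion lists hold called genes on both sides, the called glycosylation genes lie on the low side, and the ligand and further integrin lists hold no filled point.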

How the data were processed

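PolyA RNA of MOLT-4 cells was sequenced by the authors in 6 libraries, grouped from their titles. The authors deposited gene-level FPKM values with confidence bounds and an estimation status. The submitters' processing notes name STAR 2.6.1c, Cufflinks 2.2.1, HOMER 4.10 and hg38 without saying what each did. The annotation and the strand setting are not given in the sources used here. All 49727 identifiers on 1 row that recur in GENCODE 44 lie at the same GRCh38 position. ITGAL, ITGB1, CD44 and SELPLG have other identifier versions and other spans in that release, and their coordinates are those of the tables. Coordinates are counted from 1. The study's RNA-seq methods describe a mouse genome, read counting and merged technical replicates, which do not match these tables, so whether the libraries are technical replicates is not known here.

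Rows of 1 identifier were summed (110 identifiers), and 29 genes with a failed estimate were left out. Counts and fragment depth are not given, so the confidence bounds stand for precision and no count test was run. log2(FPKM + 1), which understates changes of low genes, was compared with limma 3.58.1 in R 4.3.3 (mean-variance trend, two-sided, Benjamini-Hochberg over 12652 genes whose mean reached 1 FPKM), a moderated fit used because each group has 3 libraries. The members, the 6 lists and the tests were chosen with earlier results of these data known. Named are the 10 members, IKZF1, the 4 largest called changes per list and the 3 genes most like ITGB1 and ICAM3. Other genes were named after their values were seen. Pseudoautosomal Y copies were left out of the lists. Alternatives were other pseudocounts, filters and scalings, no trend, a replicate block, neighbours removed, failed estimates kept and each library left out.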

Additional observations from a re-analysis of the deposited data

How the results depend on the processing

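In the 17 alternatives the number of called members lay between 6 and 8. It was 6 without the filter on low values, where ITGA5 and ITGAL were not called, and 6 without IK-KO replicate 2, where ITGA5 and ITGB7 were not. No member changed sign. With a minimum mean of 5 FPKM, ITGB7 was not tested and 7 were called. Without wild type replicate 1 the count was 8, but ITGB7 was not tested and ITGA6 was called. The count over all tested genes lay between 1720 and 2803 beside 2515, and that over the adhesion lists between 29 and 41 beside 34. The number of genes tested was not the same in every alternative, so these counts cannot be read as shares. No scaling moved the median of all tested genes beyond 0.02 in either direction. The log2 change of EZR turned to −0.064 with neighbours removed. The difference in the share of ITGA4 lay between −0.386 and 0.473 percentage points with 1 library left out, and was −0.386 without wild type replicate 2. Shared replicate numbers gave no pairing, since across genes the deviations under numbers 1, 2 and 3 correlated by only 0.067, 0.025 and 0.005. In the fit with the replicate block, 8 members, 29 list genes and 1805 genes in all were called, and the differences in chain shares were the same by construction (17.4 points for ITGB1). The alternatives for IKZF1 and the list genes were added after seeing the data. Fragment depth is not given, and the lower confidence bound of ITGB7 was 0 in 2 IK-KO libraries.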
